A study of Mus musculus with 12 samples.

Results

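Interferon-stimulated genes were read in 4 mouse lung adenocarcinoma cell lines as a list of 42 genes, 2 of which (Ifnar1 and Ifngr1) are interferon receptors and not themselves classical induced genes. A member was measured when a probe set carried its symbol alone, and the brightest such probe set stood for the gene. This gave 40 members among 18193 genes. Isg15 and Ifi44 had no such probe set and were not analysed here. Ifit2 lay at the detection floor on all 12 arrays, which left 39 members with a signal to compare.

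The labels call KC1, KC2 and KC3 highly metastatic lines and KC4 a poorly metastatic one, and each has 3 biological replicates on 1 array each. Every line carries K-rasLA1/+, a latent allele from which oncogenic K-ras is expressed after spontaneous recombination, together with Cdkn1a-/-, the loss of the cell-cycle inhibitor p21, on a background labelled 127s. The lines came from primary lung tumours of KC mice (6 tumours from 4 mice, not assigned to lines in the labels) and were grown in RPMI 1640 with 10% serum. The labels name no interferon or other treatment, so the values are read here as levels in culture without added interferon. The poorly metastatic class holds 1 line, so class and line cannot be told apart there.

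Type I interferons bind a receptor that contains Ifnar1, and interferon gamma binds one that contains Ifngr1. Janus kinases then phosphorylate STAT proteins. A complex that contains Stat2 and Irf9 binds the interferon-stimulated response element (ISRE) of antiviral genes, while the gamma-activated site (GAS) is the element of the interferon gamma response. Many of the induced proteins sense viral RNA, cut or edit it, or tag proteins with the ubiquitin-like Isg15. Cultured carcinoma cells can express part of this set without added interferon.

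Signals are linear array units scaled to the same average on every array. For tests, signals under 16 were set to 16 and log2 was taken, so 4.00 is the lowest log2 value. A gene was called when the limma adjusted p over all 18193 genes was under 0.05 and the log2 difference was at least 1. A line was set apart by a gene that was called in all 3 of its pairs with 1 sign. Those 3 comparisons share the arrays of that line. Nothing shows that the replicates came from separate passages or days, so p-values measure the spread between these arrays.

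Epithelial markers were high in all 4 lines: the line means of Epcam, Cdh1, Krt8, Krt18, Krt19 and Krt7 lay between 12.63 and 14.53 on the log2 scale. Of 7 measured lung lineage markers 1 was called higher (Sftpd, line means 6.75 to 10.32, also setting KC2 apart) and 1 lower (Foxa2, 6.68 to 9.03) between the classes, and their summed signal was 1067 to 1665 in KC1, 1615 to 1917 in KC2 and 535 to 886 in KC3, against 1006 to 1304 in KC4. The surfactant genes Sftpc and Sftpb had line means of 6.63 to 8.15, the lung factor Nkx2-1 of 4.18 to 5.41, and the alveolar protease Napsa was at the floor. The part of these marker differences in the results was not tested. Of 11 measured leukocyte markers 0 were called in any pair of lines by limma (3 at an unadjusted p under 0.05). Their summed signal was 1654 to 2222 in KC1, 2135 to 2202 in KC2 and 1703 to 1985 in KC3, against 2014 to 2156 in KC4. The defining leukocyte gene Ptprc had line means of 5.33 to 5.99 and Itgam of 4.00 to 4.44 on the log2 scale. Most of the summed signal thus came from the other, brighter markers of the list. The median signal of all probe sets was 94.5 to 111.6 on the KC3 arrays and 106.5 to 128 on the others. The 18S ribosomal 5-prime control averaged 605 on KC1 arrays, 451 on KC2 arrays and 414 on KC3 arrays, against 3305 on KC4 arrays, and its part in the KC4 differences was not tested. One Cdkn1a probe set gave 3875 to 8209 on all arrays and the other stayed under 16, so the arrays give no check of the deletion, whose position relative to these probe sets is not stated.

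The heat map of all members by array shows where the list varied. KC3 had the lowest line mean for 28 of the 39 members, against 31% of all genes not at the floor everywhere. On 14 of the 39, all 3 KC3 arrays lay below all 9 arrays of the other lines, against 8.76% of those genes. On 2, Adar and Ifi35, all 3 KC3 arrays lay above all 9 others, against 11.1% of those genes. The median member differed by -0.56 on the log2 scale in KC3 minus the mean of the other lines, and the median of all genes by -0.04. KC1 had the highest line mean for 15 of the 39 members, against 17.6% of genes not at the floor everywhere. KC2 had it for 13 of the 39, a share close to the 30.8% of those genes.

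**Figure D1:**
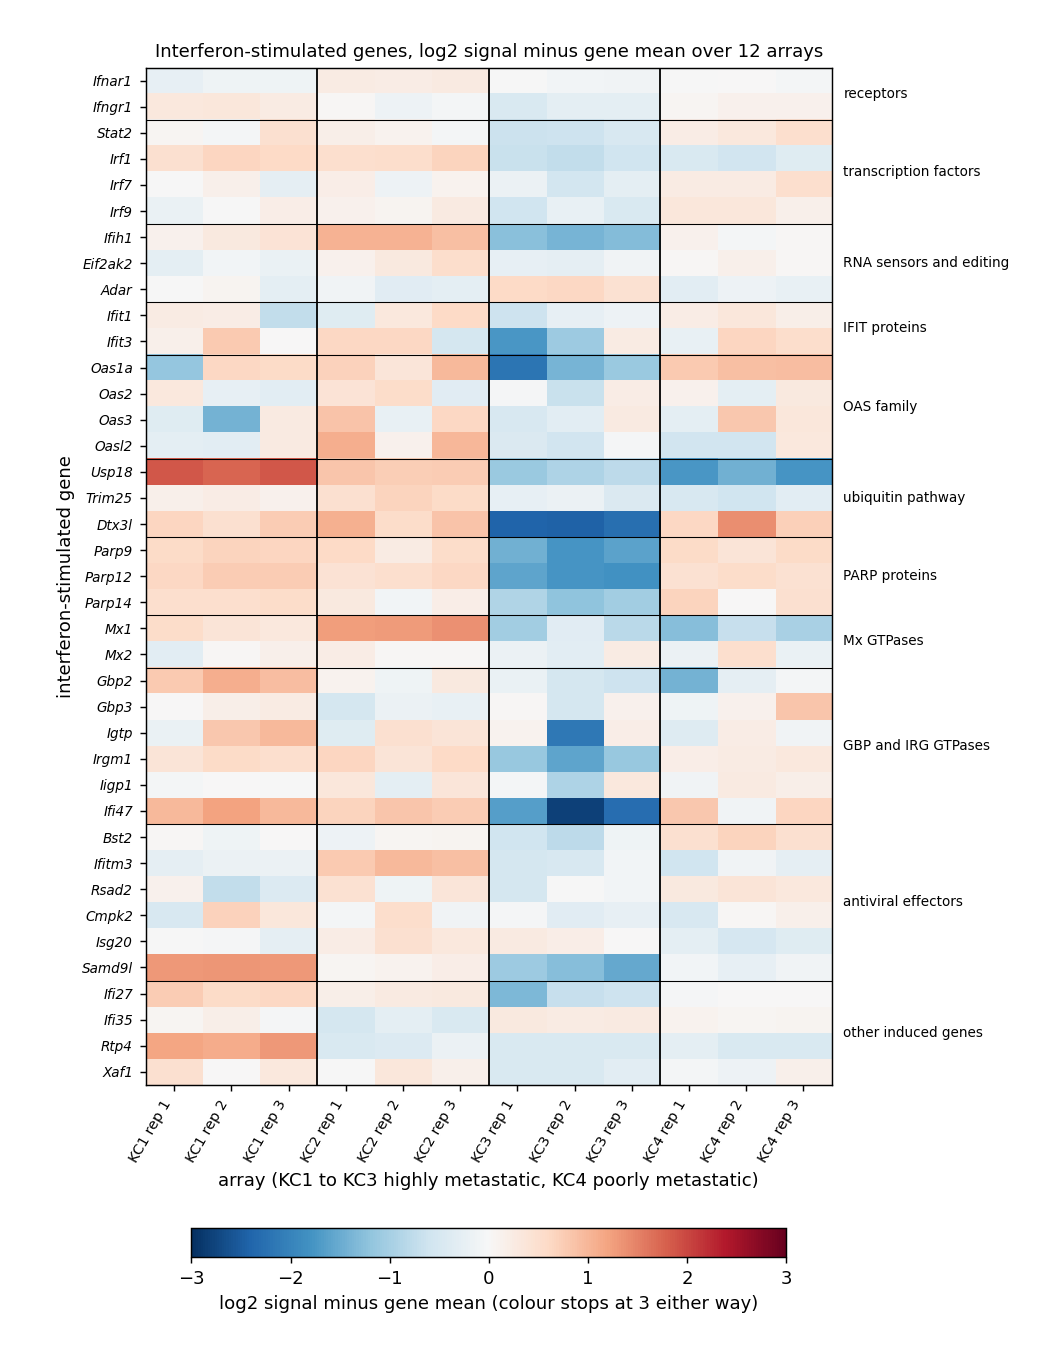
Each row is 1 of 39 interferon-stimulated genes grouped by role, each column 1 array, and colour is the log2 signal (floor 4.00) minus the gene's mean over the 12 arrays. The KC3 columns are blue in most rows, deepest for Dtx3l, Ifi47, Parp9 and Parp12, while Usp18 is red in KC1 and blue in KC4.

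All 3 PARP members and their partner gene Dtx3l were lower in KC3 than in each other line. Dtx3l is a ubiquitin ligase that forms a complex with Parp9, and in human cells their genes share a promoter that answers to interferon gamma. Dtx3l had signals of 80.2, 78.7 and 87.8 in KC3 cells, against 664, 593 and 724 in KC1 cells, 884, 625 and 764 in KC2 cells and 657, 1112 and 702 in KC4 cells. The 9 arrays of the other lines spanned 593 to 1112 and the KC3 arrays did not come near them. The difference of KC3 from the mean of the other lines was -3.16 (SE 0.164) on the log2 scale, and the largest limma adjusted p of its 3 pairs was 4.93e-06. A second, dimmer Dtx3l probe set also set KC3 apart, with log2 means of 5.83 in KC3, against 8.34 in KC1, 8.37 in KC2 and 8.33 in KC4.

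Parp9, the partner of Dtx3l, gave 85.5, 68.2 and 77.1 in KC3 cells, against 348, 374 and 367 in KC1 cells, 355, 278 and 342 in KC2 cells and 349, 305 and 347 in KC4 cells. KC3 lay -2.15 (SE 0.0901) from the mean of the others (largest limma adjusted p = 1.02e-06), and the groups did not overlap. Parp12, an enzyme that attaches single ADP-ribose units and restricts viruses, gave 176, 154 and 150.2 in KC3 cells, against 815, 893 and 894 in KC1 cells, 713, 748 and 816 in KC2 cells and 721, 779.8 and 729 in KC4 cells. Here too the KC3 arrays formed a separate group, at -2.30 (SE 0.0611) and with a largest limma adjusted p of 7.4e-08. Parp14, a macrodomain protein with the same kind of activity, was dimmer, with 51.2, 41.7 and 46.8 in KC3 cells, against 136, 138 and 142 in KC1 cells, 119, 91.6 and 111 in KC2 cells and 152, 97.8 and 135 in KC4 cells. Its difference was -1.40 (SE 0.132) with a largest limma adjusted p of 0.000282. A second, dim Parp14 probe set did not set KC3 apart, with log2 means of 4.56 in KC3 cells, against 5.35 in KC1 cells, 4.00 in KC2 cells and 4.10 in KC4 cells. The Parp14 call did not hold under several alternatives: the smallest of its 3 differences was -0.94 after quantile normalization, -0.96 after median centring, -0.97 with a pseudocount of 16, -0.73 at a floor of 64 and -0.32 when its probe sets were averaged. In the RefSeq gene table of GRCm38.p6, Dtx3l has Parp9 and Parp14 as its direct protein-coding neighbours on chromosome 16, with 0 protein-coding genes between each pair. Parp12 lies on chromosome 6.

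Ifih1, also called MDA5, is a cytoplasmic sensor of long double-stranded RNA. It gave 112, 102 and 108 in KC3 cells, against 289.7, 325 and 355 in KC1 cells, 549, 549 and 499 in KC2 cells and 293, 257 and 272 in KC4 cells. All KC3 arrays were below all others and all KC2 arrays above them, and KC3 differed by -1.75 (SE 0.0663) with a largest limma adjusted p of 2.5e-06. The other 2 members with roles in RNA sensing and editing were called in no pair. Adar, which edits double-stranded RNA, had 1369.8, 1388 and 1243 in KC3 cells, against 902, 954 and 744 in KC1 cells, 839, 718 and 736 in KC2 cells and 733, 817 and 772 in KC4 cells by its brightest probe set, a log2 difference of 0.74 (SE 0.0816) that stayed under the minimum for a call against each line. Its other 2 probe sets had KC3 as the lowest line, with log2 means of 8.54 in KC3 cells, against 8.58 in KC1 cells, 8.59 in KC2 cells and 8.62 in KC4 cells, and of 6.64 in KC3 cells, against 7.06 in KC1 cells, 7.10 in KC2 cells and 6.84 in KC4 cells. The probe sets of Adar thus gave no common direction for KC3. Eif2ak2, the RNA-activated kinase PKR, had log2 means of 8.54 ± 0.11 in KC1 cells, 9.05 ± 0.20 in KC2 cells and 8.53 ± 0.09 in KC3 cells, against 8.80 ± 0.06 in KC4 cells (SD, n = 3 each).

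Irgm1 and Ifi47 are immunity-related GTPases, which in the mouse act on vacuoles that hold intracellular pathogens. Irgm1 had signals of 127, 93.3 and 128 in KC3 cells, against 368, 418 and 394 in KC1 cells, 439, 367 and 426 in KC2 cells and 320.1, 329.96 and 347 in KC4 cells, with no overlap between KC3 and the rest. The difference was -1.71 (SE 0.101) and the largest limma adjusted p 1.61e-05. Ifi47 had 35.3, 9.33 and 23.1 in KC3 cells, against 219, 259.8 and 219 in KC1 cells, 176, 198 and 190.2 in KC2 cells and 195, 104 and 175 in KC4 cells. One KC3 array lay under the floor of 16, so the log2 difference of -3.00 (SE 0.245) is a lower bound in size (largest limma adjusted p = 0.000114). Igtp and Iigp1, of the same family, were called in no pair. Igtp had 125, 26.6 and 135 in KC3 cells, against 102, 206 and 231 in KC1 cells, 91.4, 163 and 154 in KC2 cells and 89.9, 136 and 109.8 in KC4 cells, and its single low KC3 array lay apart from the other 2 KC3 arrays, which sat within the range of the other lines.

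Samd9l, a growth-restraining antiviral protein, separated the lines in 2 directions. Its signals were 215, 187 and 157 in KC3 cells, against 1121, 1144 and 1128 in KC1 cells, 478, 493 and 526 in KC2 cells and 431, 385 and 424 in KC4 cells. KC1 was above every other array and KC3 below every other one, while KC2 and KC4 lay between them. KC1 minus KC3 was 2.61 (SE 0.102, limma adjusted p = 2.02e-07). After median centring the smallest KC3 difference was -0.98, just short of a call.

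Oas1a, which makes the 2-5A signal that activates RNase L, gave 25.8, 45.0 and 54.9 in KC3 cells, against 53.1, 183 and 176 in KC1 cells, 191, 153 and 233 in KC2 cells and 203, 223 and 223 in KC4 cells. It set KC3 apart on the means, with -2.09 (SE 0.383) and a largest limma adjusted p of 0.028, but 1 KC1 array lay inside the KC3 range. The set-apart call was lost without KC1 replicate 2 or 3 or KC3 replicate 1 or 2, with a smallest difference of -2.17 to -1.27 over the 12 ways of leaving out 1 array, and at a floor of 64, where it was -0.99. Of the other OAS genes, Oas2 and Oas3 were called in no pair, and Oasl2 only in KC2 minus KC4 (1.01) and KC2 minus KC3 (1.08). Oasl2, an OAS-like protein, had 50.2, 26.0 and 47.0 in KC2 cells, against 19.3, 18.9 and 28.5 in KC1 cells, 17.5, 7.44 and 23.1 in KC3 cells and 13.0, 8.14 and 29.5 in KC4 cells. Its lowest KC2 array lay among those of the other lines.

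In all, 9 of 40 members were lower in KC3 than in each other line, 22.5% against 1.54% of all genes. The count was 7 after median centring, 7 at a floor of 64, 8 after quantile normalization and 8 to 11 when single arrays were left out. Median centring moved the median of all genes to -0.21 in KC1 minus KC3, -0.20 in KC2 minus KC3 and 0.16 in KC3 minus KC4 on the log2 scale, and Dtx3l, Parp9, Parp12, Ifih1, Irgm1, Ifi47 and Oas1a remained lower by the full rule. In KC2 minus KC3 this scaling called 11 members higher and 1 lower, beside 744 and 1515 of all genes. For the actin control, 3-prime over 5-prime signal was 0.16 (log2) on KC3 arrays, against 0.04 on KC1 arrays, 0.17 on KC2 arrays and 0.06 on KC4 arrays. For the Gapdh control it was -0.39 on KC3 arrays, against -0.32, -0.33 and -0.33 on KC1, KC2 and KC4 arrays. The Dap control, a bacterial RNA, had a 3-prime signal of 506 on KC3 arrays, against 901 on KC1 arrays, 912 on KC2 arrays and 959.7 on KC4 arrays. The 3-prime Lys, Phe and Thr controls were also lowest on KC3 arrays, at 157, 127 and 177. They were 250, 170 and 276 on KC1 arrays, 235, 160 and 272 on KC2 arrays and 283, 187 and 293 on KC4 arrays. The 3-prime BioC and CreX controls were not lowest on KC3 arrays, at 401 and 10507, against 308 and 9761 on KC2 arrays. The part of these controls in the KC3 differences was not tested.

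**Figure D2:**
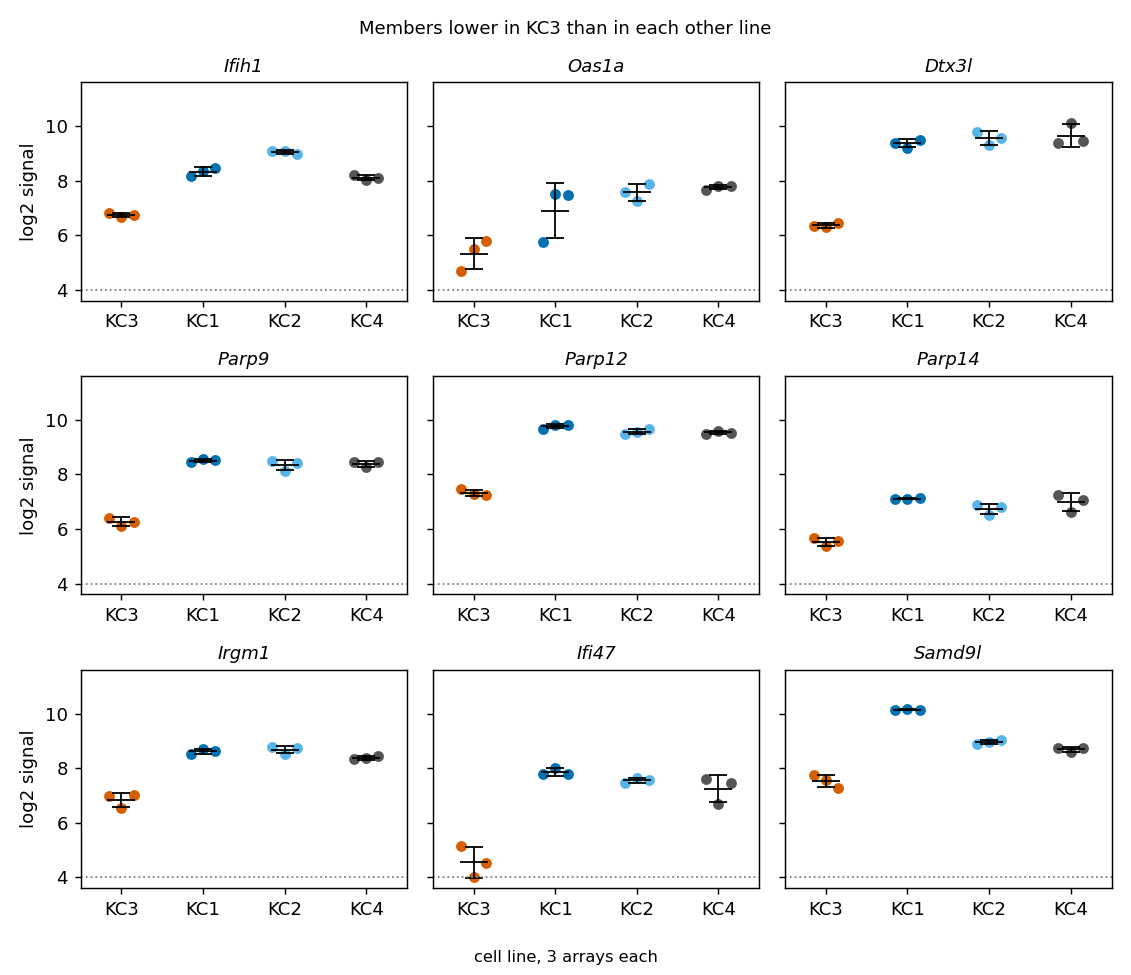
Points are single arrays (3 per line) on the log2 scale, the bar is the mean and the whiskers the SD, and the dotted line is the floor of 4.00. In 8 of the 9 panels every KC3 array lies below every other array, and in the Oas1a panel 1 KC1 array falls among the KC3 arrays.

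Promoter windows (250 bases before to 50 after each annotated start, RefSeq, GRCm38.p6) were searched on both strands for an ISRE core, here 2 GAAA units with any 2 bases between them, and for the GAS motif TTCNNNGAA, which reads the same on both strands and can overlap an ISRE. Of 33 members with a window, 15 held an ISRE core (45.5%) and 11 a GAS motif (33.3%), against 3.99% and 9.55% of 27025 genes. Among members lower in KC3, 3 of 7 with a window held an ISRE core, against 11 of 24 among the other measured members. A GAS motif was in 1 of 7, against 10 of 24, and either motif in 3 of 7, against 17 of 24. These shares were not tested. The 4 windows below show both kinds, each read 5′ to 3′ on the strand of the gene with motif matches in capitals. A match is a run of letters and not a shown binding site.
Oas1a (chr5:120907476-120907775, minus strand): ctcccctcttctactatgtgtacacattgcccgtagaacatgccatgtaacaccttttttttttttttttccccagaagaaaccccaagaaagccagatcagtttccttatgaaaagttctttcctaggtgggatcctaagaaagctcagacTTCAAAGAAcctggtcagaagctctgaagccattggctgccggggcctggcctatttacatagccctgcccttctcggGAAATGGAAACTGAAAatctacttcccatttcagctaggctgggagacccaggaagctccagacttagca
Irgm1 (chr11:48871371-48871670, minus strand): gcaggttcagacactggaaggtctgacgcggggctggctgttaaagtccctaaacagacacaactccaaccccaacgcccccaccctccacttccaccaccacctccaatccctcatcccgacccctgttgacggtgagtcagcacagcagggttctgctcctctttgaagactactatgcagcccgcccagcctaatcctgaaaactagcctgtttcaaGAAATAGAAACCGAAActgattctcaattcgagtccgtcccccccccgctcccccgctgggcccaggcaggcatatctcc
Ifih1 (chr2:62646206-62646505, minus strand): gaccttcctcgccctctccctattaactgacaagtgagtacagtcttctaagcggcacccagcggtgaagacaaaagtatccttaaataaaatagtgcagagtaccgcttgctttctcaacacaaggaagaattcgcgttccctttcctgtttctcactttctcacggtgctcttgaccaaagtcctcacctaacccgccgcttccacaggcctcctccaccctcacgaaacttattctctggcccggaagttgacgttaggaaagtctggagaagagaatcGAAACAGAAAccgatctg
Dtx3l (chr16:35938978-35939277, minus strand): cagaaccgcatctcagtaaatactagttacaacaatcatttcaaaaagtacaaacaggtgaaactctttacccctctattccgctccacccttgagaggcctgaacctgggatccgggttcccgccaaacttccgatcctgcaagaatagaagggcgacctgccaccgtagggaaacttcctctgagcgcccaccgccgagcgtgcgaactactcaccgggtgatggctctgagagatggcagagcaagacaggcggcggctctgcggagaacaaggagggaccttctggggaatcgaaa
In Oas1a the capitals mark a GAS motif that begins 98 bases before the start and 2 overlapping ISRE cores that begin 20 and 14 bases before it. Irgm1 holds an overlapping pair that begins 30 and 24 bases before the start, and Ifih1 holds 1 core, beginning 32 bases after it. The Dtx3l window, like that of Ifi47, Parp12 and Samd9l, holds neither string. Parp9 and Parp14 had no window of their own and were not searched.

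The class comparison set the 3 highly metastatic lines against KC4, and it called 4 members. Usp18 and Mx1 were higher in the highly metastatic lines and Dtx3l and Oas1a lower, which is 5% of the members in each direction against 2.87% and 2.57% of all genes. The median difference of the members was -0.08, and that of all genes was -9e-04. When line entered as a random block, limma called 0 members (5 at an unadjusted p under 0.05) while it called 152 of all genes higher and 97 lower, and it called 0 members with line means as replicates (0 unadjusted, and 0 of all genes called).

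Usp18 removes Isg15 from proteins and damps signalling at the type I interferon receptor. Its signals were 1209, 1119 and 1207 in KC1 cells, 593, 558 and 570.4 in KC2 cells and 154, 177 and 194 in KC3 cells, against 100.1, 123 and 97.9 in KC4 cells. The order was the same in every array: all KC1 arrays above all KC2 arrays, these above KC3, and KC3 above KC4. The difference between classes was 2.20 on the log2 scale (SE 0.0838, limma adjusted p = 1.66e-07), made up of 3.47 for KC1, 2.43 for KC2 and 0.71 for KC3, the last under the minimum for a call. KC1 was also set apart from each other line by Usp18 (largest limma adjusted p = 9.34e-05).

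Mx1, a dynamin-like GTPase that blocks influenza viruses, had 102, 91.7 and 87.2 in KC1 cells, 167, 170.1 and 182 in KC2 cells and 34.0, 55.5 and 39.8 in KC3 cells, against 29.1, 43.2 and 36.0 in KC4 cells. KC2 was highest and KC1 next, and the KC3 and KC4 arrays overlapped. The difference between classes was 1.31 (SE 0.153, limma adjusted p = 0.000165), and without line KC2 it was 0.82 and no longer called. At a floor of 64 it was 0.66. Mx2 lay between 13.2 and 28.3 on all arrays.

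Both lower calls ended when line KC3 was left out. The class difference of Dtx3l was -1.22 (SE 0.164, limma adjusted p = 0.00038), and -0.19 without line KC3. Without KC4 replicate 2, the highest Dtx3l array of all, it was -0.98 and lost its call. Oas1a had -1.16 (SE 0.383, limma adjusted p = 0.0463), and -0.52 without line KC3. It also lost the class call in 9 of the 12 fits that left out 1 array, at values from -1.26 to -0.96 over all 12, and at a floor of 64 (-0.90) and with a pseudocount of 16 (-0.99). Without KC4 replicate 2 the number of members called between the classes was 2 instead of 4.

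In KC1 minus KC4, 6 members were higher (15% against 3.49% of all genes). These were Usp18, Mx1, Irf1, Gbp2, Samd9l and Rtp4. In KC2 minus KC4, 6 were higher (15% against 5.02%), namely Usp18, Mx1, Irf1, Trim25, Oasl2 and Ifitm3. In KC3 minus KC4, 10 were lower (25% against 4.7%), the 9 described above and Bst2. These 3 comparisons share the KC4 arrays. Without KC4 replicate 2, or after median centring, KC2 minus KC4 held 3 called members.

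Within the highly metastatic class the numbers were larger. In KC1 minus KC3, 15 members were higher (37.5% against 5.33%), and in KC2 minus KC3, 15 (37.5% against 5.9%). Beyond the 9 members set apart in KC3, both held Irf1, Usp18, Mx1 and Ifi27, the first also Gbp2 and Rtp4 and the second Oasl2 and Ifitm3. In KC1 minus KC2, 3 members were higher (Usp18, Samd9l and Rtp4; 7.5% against 3.09%) and 1 lower (Ifitm3; 2.5% against 1.91%). No member set KC4 apart from all 3 other lines by limma (0 of 40, with 3 at an unadjusted p under 0.05 in each pair; 1.63% of all genes did so). Over all 6 pairs, 19 of 40 members were called at least once, against 20.4% of all genes.

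**Figure D3:**
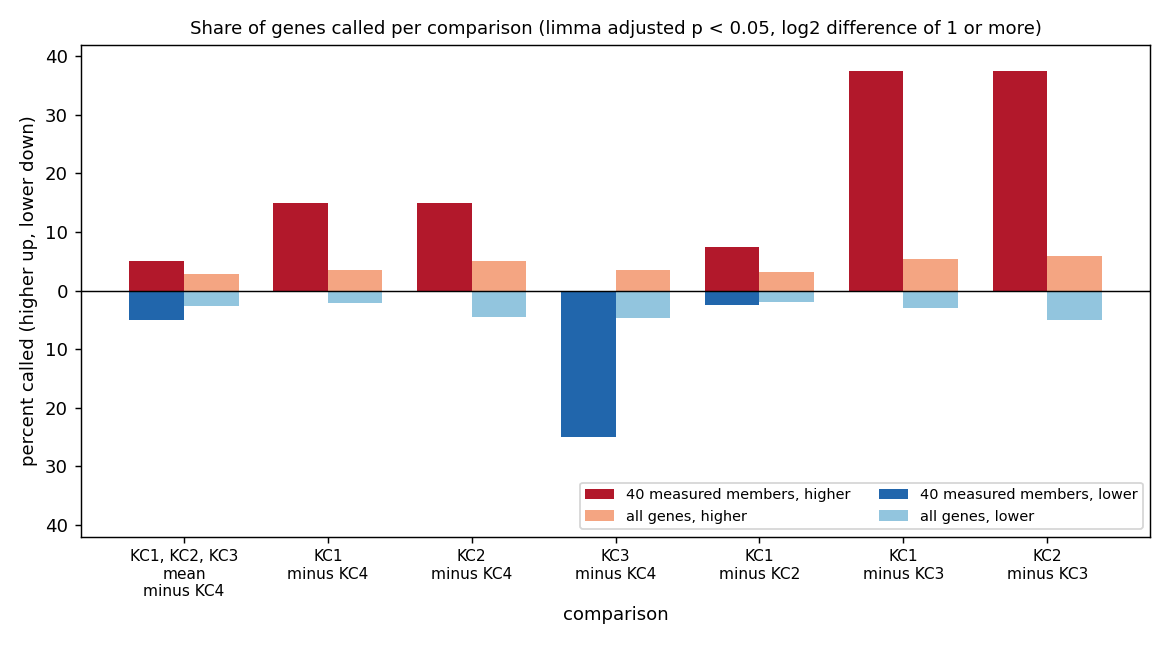
Bars give the percent called in each comparison, upward for higher and downward for lower in the line or lines named first. Dark bars are the 40 measured members and pale bars all 18193 genes. The tallest bars are those of KC1 minus KC3 and KC2 minus KC3, at 37.5% of the members each. Pale bars with no member bar beside them stand at 2.05%, 4.46%, 2.89% and 4.94% lower in KC1 minus KC4, KC2 minus KC4, KC1 minus KC3 and KC2 minus KC3, and at 3.52% higher in KC3 minus KC4.

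Irf1, a transcription factor induced by both interferon types, split the lines into 2 pairs. Its signals were 1199, 1351 and 1314 in KC1 cells, 1221, 1237 and 1371 in KC2 cells and 544, 515 and 571 in KC3 cells, against 625, 583 and 669.96 in KC4 cells. Every KC1 and KC2 array lay above every KC3 and KC4 array. KC1 minus KC4 was 1.04 (limma adjusted p = 1.01e-05) and KC2 minus KC4 1.03 (limma adjusted p = 5.26e-06), while KC3 minus KC4 was -0.20 and not called. The class difference of 0.62 stayed under the minimum.

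The other 3 factors were called in no pair. Stat2 had 143, 132 and 193 in KC1 cells, 155, 149 and 132 in KC2 cells and 87.5, 89.5 and 98.6 in KC3 cells, against 162, 173 and 196 in KC4 cells, and its class difference was -0.47 (limma adjusted p = 0.0108). Irf9, the DNA-binding partner of Stat2, had a class difference of -0.36 (limma adjusted p = 0.0225) and Irf7, the amplifier of interferon alpha genes, of -0.44 (limma adjusted p = 0.0212). All 3 were below the minimum for a call in every pair. For Stat2 and Irf9 all 3 KC3 arrays were nevertheless below all other arrays.

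The receptor genes were expressed in all 4 lines. Ifnar1 had 401, 434 and 434 in KC1 cells, 564, 556 and 566 in KC2 cells and 467, 448 and 440.2 in KC3 cells, against 473, 473 and 454 in KC4 cells, and its class difference was 0.03 (SE 0.032). Ifngr1 had 1419, 1453 and 1355 in KC1 cells, 1168, 1026 and 1103 in KC2 cells and 830.04, 932 and 935 in KC3 cells, against 1185, 1245 and 1239 in KC4 cells, with a class difference of -0.13 (SE 0.0503). Of these 2 receptor genes 0 were called in any pair by limma, and both reached an unadjusted p under 0.05 in at least 1 pair. The largest difference between line means was 0.65, for KC1 minus KC3 in Ifngr1.

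KC1 was set apart by 3 members, all higher, against 0.72% of all genes. They were Usp18, Samd9l and Rtp4, a chaperone of G-protein-coupled receptors that interferon induces. Rtp4 had 50.1, 47.7 and 54.2 in KC1 cells, against 8.22, 16.5 and 19.6 in KC2 cells, 11.9, 8.62 and 12.3 in KC3 cells and 18.1, 11.0 and 11.9 in KC4 cells. The signal was low in KC1 and at or near the floor in the other lines, where 6 of 9 arrays lay under 16. The difference of 1.60 (SE 0.0684) is thus a lower bound, and the smallest of its 3 differences was 0.77, with no call, when probe sets were averaged. At a floor of 64, above all its signals, the difference was 0, and 2 members set KC1 apart. Gbp2, a guanylate-binding GTPase induced most strongly by interferon gamma, had 94.2, 116 and 104 in KC1 cells, against 58.7, 49.7 and 66.5 in KC2 cells, 47.5, 37.7 and 35.1 in KC3 cells and 20.3, 45.1 and 52.3 in KC4 cells. KC1 was above all other arrays, and it was called against KC4 (1.52, limma adjusted p = 0.00653) and KC3 but not against KC2. A second Gbp2 probe set, whose x_at ending marks possible pick-up of related transcripts, set KC1 apart, with log2 means of 6.21 in KC1, against 5.07 in KC2, 4.15 in KC3 and 4.71 in KC4.

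KC2 was set apart by 1 member, Ifitm3, against 0.819% of all genes. This membrane protein blocks the fusion of entering viruses, and it had 121, 138 and 131 in KC2 cells, against 57.5, 61.8 and 62.2 in KC1 cells, 48.1, 49.8 and 65.9 in KC3 cells and 46.4, 65.1 and 57.7 in KC4 cells. The other 9 arrays lay at or below 65.9. The difference was 1.19 (SE 0.119) with a largest limma adjusted p of 0.000517, and the call was lost with a pseudocount of 16, where its smallest difference was 0.93. Without KC2 replicate 2 a second member set KC2 apart.

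**Figure D4:**
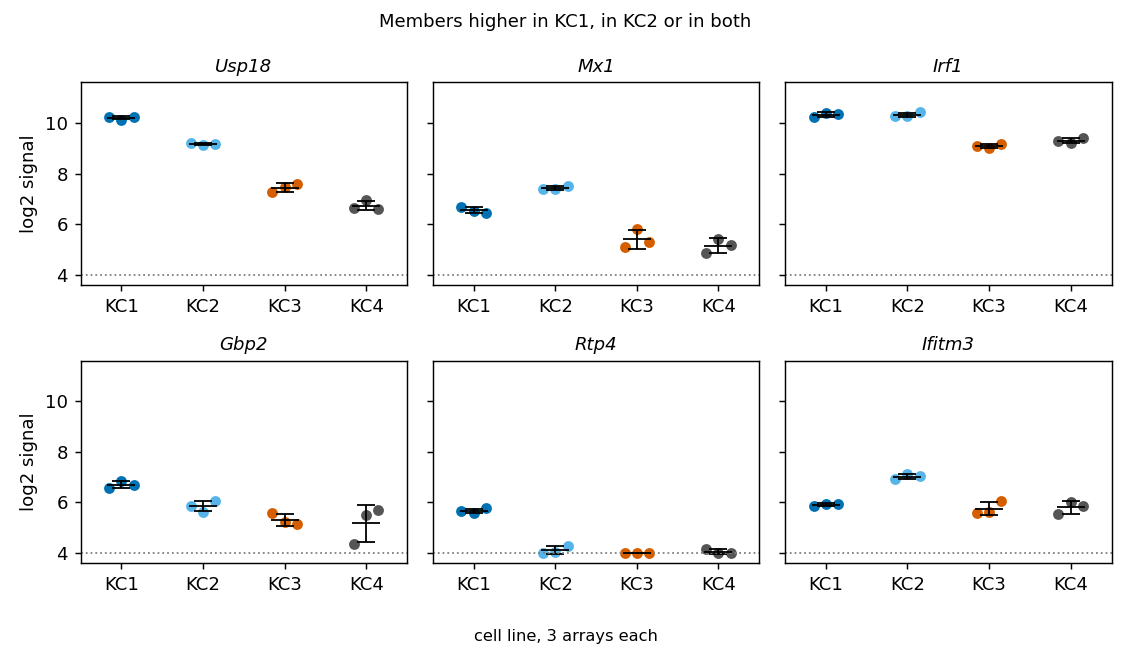
Points are single arrays (3 per line) on the log2 scale, with the mean as a bar, the SD as whiskers and the floor of 4.00 dotted. Usp18 steps down over KC1, KC2, KC3 and KC4, Irf1 is high in KC1 and KC2 alike, Rtp4 and Gbp2 are highest in KC1, and Mx1 and Ifitm3 in KC2.

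Ifi27, a mitochondrial interferon-induced protein, had 314, 494 and 523 in KC3 cells, against 1354, 1185 and 1222 in KC1 cells, 899, 963 and 973 in KC2 cells and 783, 809.6 and 809.98 in KC4 cells. All KC3 arrays were lowest, but the difference from KC4 (-0.89) fell short of the minimum. A second probe set of Ifi27 with the ending s_at did set KC3 apart, with log2 means of 6.23 in KC3, against 9.39 in KC1, 8.74 in KC2 and 7.98 in KC4. Bst2, or tetherin, which holds budding virions at the cell surface, had log2 means of 8.09 ± 0.08 in KC1 cells, 8.11 ± 0.13 in KC2 cells and 7.61 ± 0.34 in KC3 cells, against 8.67 ± 0.11 in KC4 cells (SD, n = 3 each) and was called in KC3 minus KC4 alone (-1.06). Trim25, the ubiquitin ligase that activates RIG-I, had 10.58 ± 0.05 in KC1 cells, 10.98 ± 0.09 in KC2 cells and 10.12 ± 0.14 in KC3 cells, against 9.94 ± 0.13 in KC4 cells (log2, SD, n = 3 each) and was called in KC2 minus KC4 alone (1.05). The Trim25 probe set has the ending s_at.

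The remaining 21 members were called in no pair, and their line means differed by at most 1.18 on the log2 scale. That value belongs to Ifit3, with 15.9, 25.3 and 63.9 in KC3 cells, against 59.7, 93.0 and 54.2 in KC1 cells, 82.8, 83.5 and 37.5 in KC2 cells and 46.1, 84.3 and 77.2 in KC4 cells, where the KC3 arrays themselves ran from under the floor to a level within the other lines. The IFIT proteins bind foreign RNA ends. Ifit1 lay between 32.5 and 82.0 on all arrays and Ifit2 between 2.85 and 10.2, under the floor. The lack of an Ifit2 signal says nothing of the transcript beyond this 1 probe set. Rsad2 (viperin) had log2 means of 7.22 ± 0.43 in KC1 cells, 7.78 ± 0.32 in KC2 cells and 7.35 ± 0.28 in KC3 cells, against 7.89 ± 0.05 in KC4 cells, and its neighbour Cmpk2, with 0 protein-coding genes between them on chromosome 12, lay at or under 36.3 on every array. Isg20, an exonuclease, was brighter in the highly metastatic lines by 0.52 (limma adjusted p = 0.00123), below the minimum. Ifi35, Xaf1 and Gbp3 had class differences of -0.12, 0.02 and -0.37, Oas2 and Oas3 of -0.06 and -0.37, and Iigp1 and Igtp of -0.15 and 0.12. At an adjusted p under 0.05 with no minimum size, 9 members were higher and 10 lower between the classes (22.5% and 25%, against 16.8% and 15.3% of all genes).

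Beyond the list, 127 of 149 other genes of the interferon pathway were measured, and the class comparison called 9 of them higher and 3 lower, beside 2.87% and 2.57% of all genes. Their median difference of KC3 from the mean of the other lines was -0.20, and that of all genes was -0.04. KC3 was set apart by 4 of the 127, all lower, beside 1.54% of all genes. KC4 was set apart by 2 higher and 2 lower, beside 1.63% of all genes in either direction. KC1 and KC2 were set apart by 2 each, all higher, beside 0.72% and 0.819% of all genes. Of 10 measured interferon genes 0 were called in any pair by limma (2 at an unadjusted p under 0.05), and Ifnb1 had log2 means of 6.45 ± 0.26 in KC1 cells, 6.38 ± 0.41 in KC2 cells and 6.16 ± 0.30 in KC3 cells, against 6.34 ± 0.24 in KC4 cells (SD, n = 3 each).

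Among 7 further receptor and kinase genes, Ifnlr1, the specific chain of the interferon lambda receptor, was the 1 called between the classes. It had 623, 554 and 557 in KC1 cells, 969.9, 838 and 797 in KC2 cells and 545, 553 and 688 in KC3 cells, against 328, 322 and 335 in KC4 cells, a difference of 1.02 (SE 0.0839, limma adjusted p = 1.83e-05), with every KC4 array lowest. Jak1, Jak2 and Tyk2, chosen like Ifnb1 and Socs1 for their role after values were seen, differed by -0.42, -0.40 and 0.09. The median class difference of the 7 genes was 0.55. In KC2 minus KC4, 3 of the 7 were called higher, beside 5.02% of all genes. Among 8 other measured STAT and IRF pathway genes, Nmi, an interferon-induced STAT-binding protein, set KC3 apart downward, at 6.95 ± 0.16 on the log2 scale in KC3 cells, against 8.88 ± 0.07 in KC1 cells, 8.12 ± 0.09 in KC2 cells and 8.23 ± 0.08 in KC4 cells (SD, n = 3 each).

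Of 16 nucleic acid sensors and adaptors 2 were higher between the classes. Aim2, a cytosolic DNA sensor of the inflammasome, had 284, 237 and 239 in KC1 cells, 43.0, 39.5 and 42.2 in KC2 cells and 7.54, 2.04 and 23.9 in KC3 cells, against 3.33, 4.82 and 10.6 in KC4 cells. It was set apart upward in KC1, and its class difference of 1.85 (limma adjusted p = 3.96e-06) depends on the floor, under which all KC4 arrays and 2 of 3 KC3 arrays lay. Sting1, the adaptor of cytosolic DNA sensing, had 412, 437 and 391 in KC1 cells, 428, 442 and 325 in KC2 cells and 158, 153 and 164 in KC3 cells, against 145, 134 and 124 in KC4 cells. Every KC1 and KC2 array was above every KC3 and KC4 array, and the class difference was 1.14 (limma adjusted p = 1.65e-05). Tlr3, the endosomal sensor of double-stranded RNA, set KC2 apart with 9.71 ± 0.03 in KC2 cells, against 8.68 ± 0.04 in KC1 cells, 7.42 ± 0.15 in KC3 cells and 8.01 ± 0.21 in KC4 cells (log2, SD, n = 3 each). Of 18 measured negative regulators limma called 0 between the classes, beside 2.87% higher and 2.57% lower of all genes. Their median class difference was -0.05. The feedback inhibitor Socs1 was among them, with a class difference of 0.97 (limma adjusted p = 0.0108), under the minimum for a call.

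Of 68 further interferon-induced genes 6 were higher and 3 lower between the classes, beside the same 2.87% and 2.57% of all genes. Gbp8, another guanylate-binding protein gene, led the higher ones with 197, 193 and 167 in KC1 cells, 1421, 1317 and 1276 in KC2 cells and 38.4, 40.3 and 53.3 in KC3 cells, against 11.7, 3.58 and 1.27 in KC4 cells. All 3 KC4 arrays were under the floor, so its difference of 3.79 is a lower bound. Cxcl10, a chemokine that draws T cells, had 7.30, 13.4 and 69.0 in KC1 cells, 8.03, 5.29 and 4.65 in KC2 cells and 7.26, 10.5 and 12.3 in KC3 cells, against 97.1, 111 and 116 in KC4 cells. Its class difference of -2.52 is a lower bound in size, with 8 of 9 highly metastatic arrays under the floor. Lgals9, the gene of galectin-9, had a class difference of -1.42 (limma adjusted p = 7.16e-07). Lgals9 also set KC3 apart downward, as did Ube2l6, the conjugating enzyme for Isg15, and Fam111a, and these last were named after their values were seen. Ube2l6 had 17.9, 16.3 and 27.5 in KC3 cells, against 65.8, 69.2 and 56.7 in KC1 cells, 87.0, 52.6 and 89.2 in KC2 cells and 57.3, 43.4 and 38.2 in KC4 cells.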

How the data were processed

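RNA of 12 cultures was hybridised to 1-colour Affymetrix 3-prime arrays, with biotin labelling by the manufacturer's procedure, per the labels. The deposited tables hold linear intensity values for 45101 probe sets on every array. For these deposited intensities the software and background correction were not given in the sources used here. In the tables themselves, the mean after trimming 2% at each end was equal on all arrays, so a change in total RNA per cell would not be seen. After 64 control probe sets were left out, 34945 probe sets carried 1 symbol of the platform annotation and 18193 genes remained. Coordinates are those of the RefSeq promoter table.

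Differences were fitted with limma 3.58.1 in R 4.3.3, with 1 coefficient per line over all 12 arrays, moderated variances and Benjamini-Hochberg adjustment over all genes. The fit was checked on simulated data with differences added to bright genes only, so that check does not cover dim members. The median log2 SD within a line was 0.49 where a gene's mean was under 6, 0.25 from 6 to 9 and 0.10 above, so dim members are less precise. The number of arrays limits the precision.

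The members and the gene lists were chosen with earlier results of these data known. Values per array are given for members called between the classes, members that set a line apart and the 6 others with the widest range of line means. Those of Adar are given outside this rule. In the other lists up to 3 genes with the largest class difference among those called or set apart were named. The receptors and factors are always described. Arrays of different lines with the same replicate number did not deviate together (r = -0.124 to 0.103 across genes). Alternatives changed the scaling, floor, probe set, filter, prior, minimum difference, arrays used and treatment of the line. Figures were drawn with matplotlib 3.10.9.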

Additional observations from a re-analysis of the deposited data

Results flagged for a closer look

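Samd9l moved in opposite directions against KC4 in 2 highly metastatic lines, and the difference between these lines was itself called. Its signals were 1121, 1144 and 1128 in KC1 cells and 215, 187 and 157 in KC3 cells, against 431, 385 and 424 in KC4 cells. KC1 minus KC4 was 1.45 (limma adjusted p = 1.04e-05), KC3 minus KC4 was -1.16 (limma adjusted p = 2.57e-05), and KC1 minus KC3 was 2.61, all on the log2 scale.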

How the results depend on the processing

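With the replicate number as a replicate block the counts of called members equalled those without it in every comparison (4 between the classes, 9 that set KC3 apart), and the numbers do not pair the cultures. Leaving out 1 array at a time gave 2 to 4 members called between the classes, 5 to 6 in KC1 minus KC4, 3 to 6 in KC2 minus KC4, 9 to 12 in KC3 minus KC4, 4 to 5 in KC1 minus KC2, and 13 to 16 in both KC1 minus KC3 and KC2 minus KC3. The members that set a line apart then numbered 3 throughout for KC1, 1 to 2 for KC2, 8 to 11 for KC3 and 0 throughout for KC4. The lowest class and KC2 minus KC4 counts came without KC4 replicate 2, and the 2 for KC2 without KC2 replicate 2. Between the classes, 2 members were called at a floor of 64, 7 without line KC1, and 0 with the line as a random block or with line means, where KC4 is 1 value. Other single changes were 3 in KC1 minus KC4 at a floor of 64, 3 in KC2 minus KC4 after median centring and 0 that set KC2 apart with a pseudocount of 16. The filter on dim genes kept 18 members, and with fewer genes tested gave 2 between the classes, 3 in KC1 minus KC4, 3 in KC2 minus KC4, 2 in KC1 minus KC2, 9 in KC1 minus KC3, 9 in KC2 minus KC3 and 0 for KC2 set apart. A minimum difference of 0.5 gave 13 between the classes, 10 in KC2 minus KC4, 17 in KC3 minus KC4, 7 in KC1 minus KC2, 23 in KC2 minus KC3, 3 for KC2 set apart and 2 for KC4. A minimum of 2 gave 1 between the classes, 1 in KC1 minus KC4, 2 in KC2 minus KC4, 5 in KC3 minus KC4, 0 in KC1 minus KC2, 6 in KC1 minus KC3, 7 in KC2 minus KC3, and 0, 0 and 4 for KC1, KC2 and KC3 set apart. Where no construction of the alternative explains a change, the cause was not tested. The class difference of Oas1a lost its call when every probe set was tested.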
